A study of Mus musculus with 3 samples.

Results

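The miRNAs described here carry the family numbers miR-297, miR-466, miR-467 and miR-669, the families of the large miRNA array inside the mouse gene Sfmbt2. They were chosen by name alone, as every deposited entry whose name holds 1 of these numbers, which gave 80 of 1915 mature miRNAs. Their counts were read in 3 small-RNA libraries, with 1 library per group. The first came from B16 cells, a mouse melanoma line of skin origin labelled as strain C57BL/6J, and the second from the exosomes that B16 cells release. The third came from exosomes of the mouse skin line JB6, whose labels give a normal disease state and the strain BALB/c. Exosomes are vesicles that cells secrete, and these were pelleted by ultracentrifugation. Cell line, strain and disease state change together between B16 and JB6, and no JB6 cell library was analysed here, so a difference between JB6 exosomes and B16 cells cannot be told apart from one between vesicles and cells. No label gives a treatment or a batch. In these bulk libraries, fewer vesicles or cells with a given RNA and less of it in each cannot be told apart.

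Sfmbt2 codes for a Polycomb-group protein, a class of chromatin proteins that keep genes silent, and in mouse it is imprinted and read mainly from the paternal copy in extraembryonic tissue. The miRNAs in its intron are a rodent expansion, made of hairpins that were copied in tandem and are rich in stretches of alternating U and G on the 5p arm and of A and C on the 3p arm. They are known from mouse placenta and embryonic stem cells. A hairpin is cut into a 5p and a 3p strand, and the seed, bases 2 to 8 of the strand that is kept, sets which messenger RNAs it pairs with.

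Mature sequences were at hand in RefSeq (build GRCm38.p6) for 8 of the 80 members, of which miR-669n was the only 1 listed above 0 in any library. Its hairpin, Mir669n, lies at chr3:115979902-115979955 on the plus strand, inside an intron of Slc30a7 and antisense to that gene, and so outside Sfmbt2. It is shown because it held the second highest count of all members and because its sequence shares a long run with the hairpin of miR-669c-5p, the member with the highest count. In the first line below the capitals mark the mature strand within the 54-base hairpin. In the second they mark bases 3 to 20 of the mature strand, an 18-base run that also occurs in the annotated Mir669c hairpin.
Mir669n hairpin: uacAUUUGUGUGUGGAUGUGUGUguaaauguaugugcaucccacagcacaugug
miR-669n: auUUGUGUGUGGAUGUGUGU
In the 109-base Mir669c hairpin the shared run covers bases 28 to 45, counted from its 5′ end, at chr2:10509323-10509340 (GRCm38). Among the other annotated hairpins of these families the longest run shared with miR-669n was 11 bases, in Mir466h. A read of 18 bases or fewer from that stretch would therefore match both hairpins. The sources used here do not say how the authors assigned reads that match several entries.

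All 8 members with a sequence held UGUGUG or its reverse complement CACACA, 4 of them each, searched on the strand as written. The hairpins of all 8 lie outside Sfmbt2, so no member of the intronic array was searched. Among the 1623 deposited miRNAs with a mature sequence in the same table, 38 held either motif, which is 2.34%. Examples with the seed in capitals show the U and G form and the A and C form.
miR-669n: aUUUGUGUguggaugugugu
miR-466k: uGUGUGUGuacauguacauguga
miR-467h: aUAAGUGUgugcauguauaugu
miR-466i-3p: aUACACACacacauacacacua
Despite the shared letters the 8 members had 8 different seeds, and no other matched miRNA had the seed of miR-669n. The 3 examples other than miR-669n were listed at 0 in every library, and their hairpins lie on chromosomes 3, 9 and 13.

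The B16 cell library held 7925726 miRNA reads, the JB6 exosome library 4495956 and the B16 exosome library 45677. The smallest listed count was 10 in each, so a listed 0 hides at most 9 reads. As reads per 1000000 miRNA reads (RPM), that is 1.14 for B16 cells, 2.002 for JB6 exosomes and 197 for B16 exosomes. Of 2 melanocyte miRNAs, miR-211-5p had 21080 reads in B16 cells and 83 in B16 exosomes and was listed at 0 in JB6 exosomes. The other, miR-204-5p, was listed in JB6 exosomes with 14 reads. It had 60 reads in B16 cells and a listed 0 in B16 exosomes. Its 3p partner, which was not on that list, had 1242 JB6 exosome reads and a listed 0 in both B16 libraries. Of 7 epithelial and keratinocyte miRNAs, B16 cells listed 4 at a summed 24.9 RPM, JB6 exosomes 2 at 7.78 RPM and B16 exosomes none. miR-200b-3p had 71 reads in B16 cells and 22 in JB6 exosomes, and miR-203-3p had 47 and 13. miR-205-5p, a defining miRNA of skin epithelium, was at 0 in all 3 libraries.

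Reads of these families were listed in JB6 exosomes only. JB6 exosomes listed 11 of the 80 members, or 13.8%, and neither B16 library listed any. Over all 1915 entries the B16 cells listed 29.2%, the B16 exosomes 7.78% and the JB6 exosomes 20.3%. The share of members listed in JB6 exosomes was thus below that of all entries, and the shares in the B16 libraries were 0. The B16 cell library was the deepest of the 3. Its listed zeros allow at most 720 reads over all 80 members, or 0.00908% of its miRNA reads, against a measured 0.411% in JB6 exosomes (18487 reads, exact 95% interval 0.405 to 0.417). In the shallow B16 exosome library the zeros allow up to 1.58%, so a summed share equal to that of JB6 exosomes would not have been visible there if it had been spread evenly over the members.

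By family, the 11 listed members were 8 of 30 miR-669 entries, 2 of 13 miR-467 entries, 1 of 31 miR-466 entries and 0 of 6 miR-297 entries. The miR-669 entries held 18418 reads, the miR-466 entries 46 and the miR-467 entries 23. By arm, 5 of 33 entries named 5p, 4 of 35 named 3p and 2 of 12 with no arm in the name were listed. The median of the 11 listed members was 24 reads, against 107 for all miRNAs listed in JB6 exosomes, and only miR-669c-5p and miR-669n lay above the latter.

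Almost all of these reads belonged to miR-669c-5p. It had 18001 JB6 exosome reads and was listed at 0 in both B16 libraries. That is 0.400% of the miRNA reads of JB6 exosomes (exact 95% interval 0.395 to 0.406), or 4004 RPM of miRNA reads, and 97.4% of all member reads (97.1 to 97.6). In the abundance order of that library it was number 29 of 389, between miR-674-3p with 19387 reads and miR-27b-3p with 16823, both of which B16 cells also list. The other 10 listed members together had 486 reads. Their highest was miR-669n, at 167 reads, so miR-669c-5p exceeded the next member 108-fold.

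**Figure D1:**
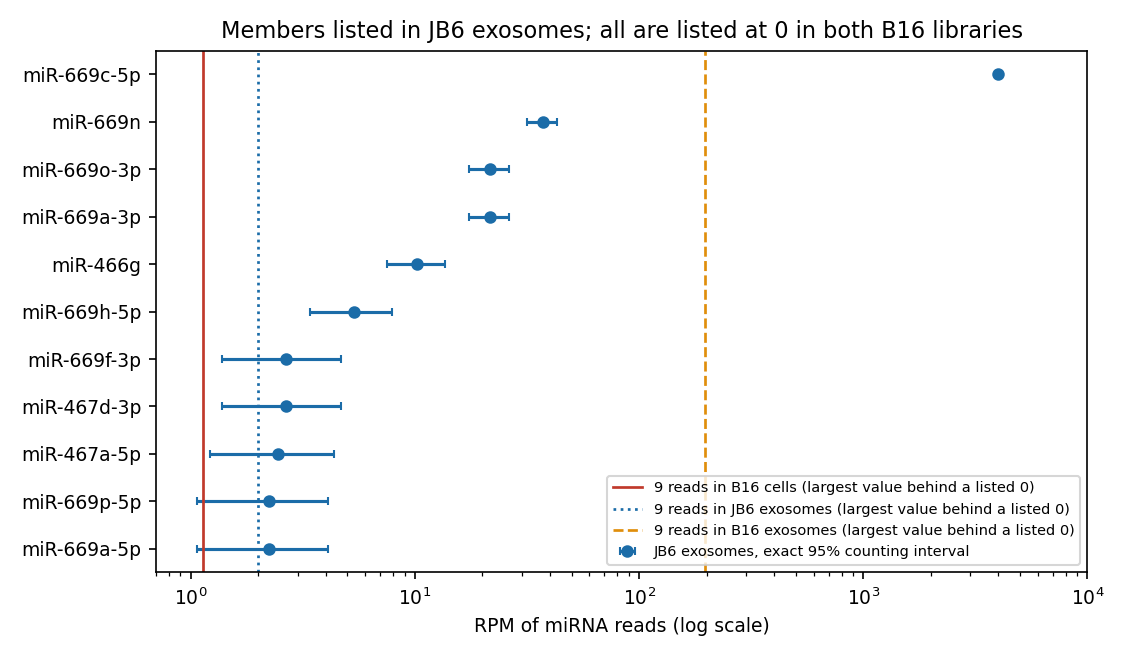
RPM of miRNA reads (log axis) of the 11 members listed in JB6 exosomes, with exact 95% counting intervals from 1 library. The vertical lines mark 9 reads in each library, the most that a listed 0 can hide. miR-669c-5p lies at 4004 RPM, right of all 3 lines, and the other 10 members lie left of the B16 exosome line at 197 RPM.

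The miR-669 family gave the next 3 members after miR-669c-5p. miR-669n had 167 JB6 exosome reads, or 37.1 RPM, and was at 0 in both B16 libraries. miR-669a-3p, whose family has been studied in muscle progenitors as a regulator of MyoD, had 97 JB6 exosome reads and the same zeros. miR-669o-3p had the same 97 reads and the same zeros. Equal counts also occurred for miR-669a-5p and miR-669p-5p, at 10 reads each. Such pairs are uncertain as separate measurements, because near-identical copies can take the same reads. With each pair counted as 1 entry, a choice made after the data were seen, 9 members were listed in place of 11 and the summed share was 0.409%.

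Of the remaining listed members, 3 stood close to 10 reads, the smallest count the files show. miR-466g, the only listed miR-466 entry, had 46 reads in JB6 exosomes, and miR-669h-5p had 24. miR-467d-3p and miR-669f-3p had 12 reads each. miR-467a-5p, of a family studied as a regulator of thrombospondin-1 in mouse cells, had 11. All 5 were listed at 0 in both B16 libraries. The 69 members listed at 0 everywhere included all miR-297 entries, 30 miR-466 entries, 11 miR-467 entries and 22 miR-669 entries.

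The arms of the same name were unequal where reads allowed a comparison. Against a partner listed at 0, taken as 9 reads, a listed arm could only come out as more frequent or as unresolved. In JB6 exosomes the 5p arm of miR-669c had 18001 reads and the 3p arm a listed 0, so the 5p arm was at least 2000-fold more frequent, or 1053-fold by the interval limit nearest to 1. For miR-669a, the only name with both arms listed, the order was the opposite, with 97 reads for 3p and 10 for 5p, a ratio of 9.70 (exact 95% interval 5.05 to 20.9). That name has 12 annotated hairpins, so its arms need not come from the same one. miR-669o-3p exceeded its 5p partner, listed at 0, by at least 10.8-fold (limit 5.45), and miR-669h-5p its 3p partner by at least 2.67-fold (limit 1.20). miR-669a-3p and miR-669o-3p had equal counts, as had miR-669a-5p and miR-669p-5p, and may share reads. The miR-669o-3p ratio is therefore uncertain as a separate observation. For miR-467a, miR-467d, miR-669f and miR-669p the listed arm had 10 to 12 reads and the other arm up to 9, and no order could be given at this depth. Over all members the 5p arms held 97.7% of the reads and the 3p arms 1.18%. Without miR-669c-5p those shares were 11.3% and 44.9%, and names without an arm held 43.8%. The excess of 5p reads thus rested on miR-669c-5p. Most of the 218 3p reads were those of miR-669a-3p and miR-669o-3p, at the equal count of 97 each.

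The positions of the hairpins were taken from GENCODE M21, which uses the build GRCm38. Sfmbt2 spans chr2:10370510-10595253 on the plus strand. Of 81 annotated hairpins of these families 71 lie inside it, all on its strand and none over an exon. They run from Mir466m to Mir669h over 51.6 kb (chr2:10466663-10518279), within a single intron of 62.5 kb that is number 10 or number 11 of the gene, depending on the annotated transcript. The other 10 hairpins lie on chromosomes 3, 5, 7, 9, 10, 11 and 13. The same intron holds 48 further annotated miRNA genes with provisional Gm names. None of the deposited entries outside the 80 members had a hairpin within Sfmbt2 by name, so no other miRNA of the locus could be set beside them.

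Listed counts did not follow the number of annotated copies, though how reads matching several copies were counted is not known. Mir669c is a single hairpin at chr2:10509296-10509404 and gave 18001 reads for its 5p arm. The name miR-669a has 12 annotated hairpins and miR-467a has 10, and their listed arms had 10 to 97 reads. These copies are the core of the tandem array. In the run from Mir669a-4 to Mir669a-12, which includes the Mir669p copies, 11 hairpins follow each other at a median spacing of 2451 bases (2414 to 2469). Of the 11 listed members 10 have all their hairpins in the Sfmbt2 intron, and these 10 held 99.1% of the member reads. miR-669n, on chromosome 3, is the exception. The Mir297c hairpin (chr2:10509016-10509113) is the nearest annotated neighbour of Mir669c on the 5′ side, and both miR-297c arms were listed at 0.

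**Figure D2:**
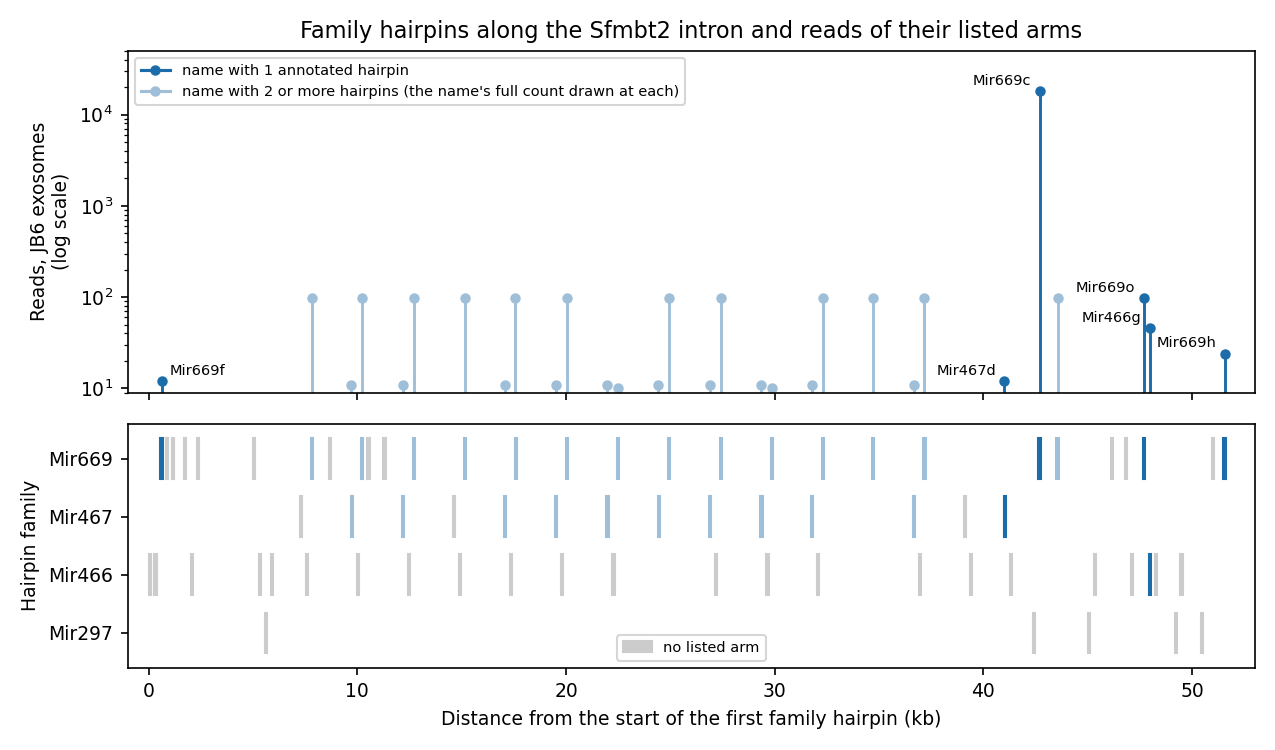
Family hairpins along the Sfmbt2 intron by distance from the first (kb, x axis), with the JB6 exosome reads of the more frequent listed arm (upper panel, log axis) and their family (lower panel). Dark marks are listed names with 1 annotated hairpin, pale marks listed names with 2 or more, drawn with the full count at each copy, and grey marks have no listed arm. Mir669c stands at 18001 reads and no other hairpin exceeds 97.

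JB6 exosomes were set against B16 cells, the pair of deep libraries, as a ratio of shares of total miRNA reads. A listed 0 was taken as 9 reads, which gives a lower bound. miR-669c-5p was at least 3526-fold higher in JB6 exosomes (interval limit nearest to 1, 1857-fold). At its JB6 exosome share, 31733 reads would have been present in the B16 cell library. miR-669n was at least 32.7-fold higher (limit 16.8), miR-669a-3p and miR-669o-3p at least 19.0-fold (limit 9.61) and miR-466g at least 9.01-fold (limit 4.36). With 30 or more reads over the pair required, these 5 of 80 members could be evaluated. All 5 were called higher, meaning a ratio of 2-fold or more whose interval leaves out 1, and none was lower. Over all miRNAs 26.1% of 501 were higher by that rule and 60.7% were lower. The 5 members could not have come out otherwise, since 30 JB6 exosome reads against a listed 0 in B16 cells give a bound of at least 5.88-fold, and all 48 miRNAs with that pattern were called higher. Their number therefore adds nothing to the listing counts.

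Of the 6 listed members with fewer than 30 reads, miR-669h-5p was at least 4.70-fold higher (limit 2.11), which meets the fold and interval parts of the rule. For miR-467d-3p and miR-669f-3p the bound was 2.35-fold with a limit of 0.909, for miR-467a-5p 2.15-fold with a limit of 0.812, and for miR-669a-5p and miR-669p-5p 1.96-fold with a limit of 0.715. For those 5 a share in B16 cells equal to that in JB6 exosomes lies within counting error. For the 80 members summed, JB6 exosomes were at least 45.3-fold higher (limit 42.0), with 18487 reads against at most 720. Without miR-669c-5p that bound was 1.20-fold (limit 1.07), which does not meet the size rule. Over only the 10 other listed members, chosen after their values were seen, the bound was 9.52-fold (limit 7.59).

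B16 exosomes were set against JB6 exosomes next. At its JB6 exosome share miR-669c-5p would have had 183 reads in the B16 exosome library, and it was listed at 0 there. It was at least 20.3-fold lower in B16 exosomes, with 10.7-fold as the limit nearest to 1. It was the only member, of 5 with 30 or more reads, to meet the rule, and the other 4 were not resolved. Over all miRNAs 11.7% of 300 were lower by the same rule and 31.3% were higher. A lower call from a listed 0 needed 1772 reads in JB6 exosomes, and the next member, miR-669n, had 167, or 1.70 reads at the depth of the B16 exosome library. Between B16 exosomes and B16 cells no member could be evaluated, as all 80 were listed at 0 in both. Over all miRNAs 8.53% of 422 were higher in that comparison and 7.82% were lower.

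Among the 81 miRNAs listed in JB6 exosomes and at 0 in B16 cells, which are 4.23% of all entries, miR-669c-5p had the highest count. The next were miR-206-3p of skeletal muscle with 16619 reads, miR-543-3p of the Dlk1-Dio3 cluster with 7009, and miR-486b-3p, of a hairpin active in red blood cells, with 4613. The other 10 listed members stood between number 24 and number 79 of that order.

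**Figure D3:**
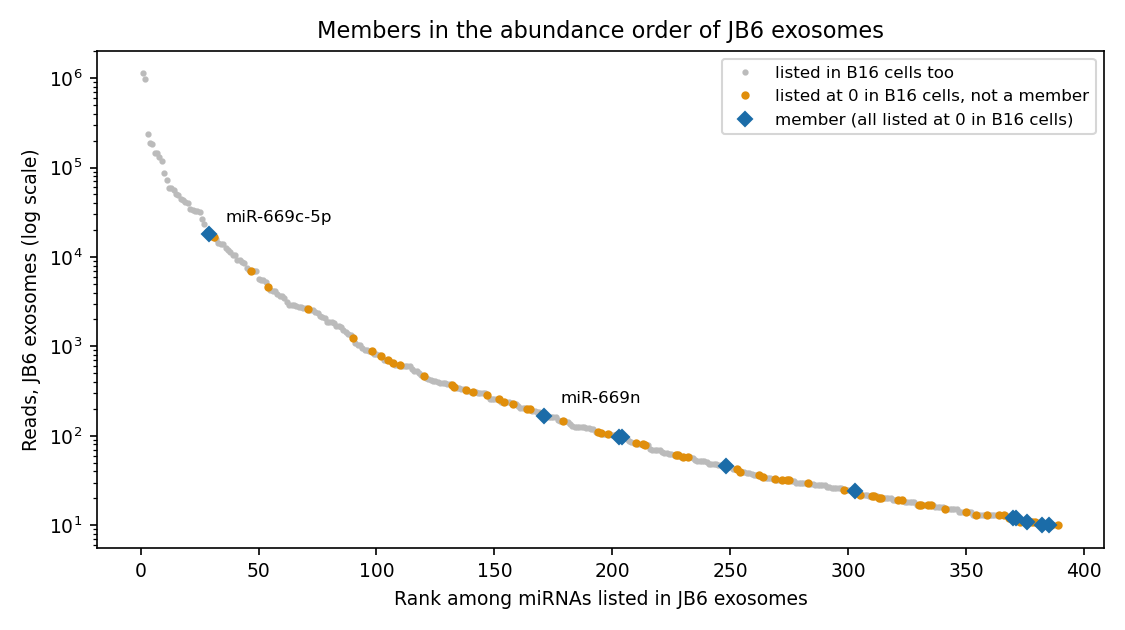
Reads in JB6 exosomes (log axis) against abundance rank for the 389 miRNAs listed there. Grey points are also listed in B16 cells, orange points are listed at 0 there, and blue diamonds are the 11 members, with miR-669c-5p at 18001 reads, miR-669n at 167 and the lowest at 10.

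Some miRNAs that mark liver, red blood cells or muscle were high in the same library, and those of embryonic stem cells and placenta were not. The liver miRNA miR-122-5p had 1129522 reads in JB6 exosomes, or 251231 RPM. Its 24 reads in the shallow B16 exosome library equal 525 RPM. That is a higher share than its 421 reads, or 53.1 RPM, in the B16 cell library. Of 4 erythroid miRNAs 4 were listed in JB6 exosomes, at a summed 14816 RPM, against 3 in B16 cells at 40.2 RPM and none in B16 exosomes. miR-486a-5p and miR-486b-5p had equal counts in each library, and with that pair counted as 1 entry the sums were 7478 RPM and 20.9 RPM. Nearly all of the JB6 exosome sum came from that pair, at 7339 RPM for each name. miR-451a had 135 RPM there and miR-144-3p 4.45 RPM. Of 3 muscle miRNAs 3 were listed in JB6 exosomes, at 3707 RPM, against 1 in B16 cells at 1.39 RPM and none in B16 exosomes. Nearly all of the JB6 exosome sum came from miR-206-3p, as miR-133a-3p had 25 reads in that library (5.56 RPM) and miR-1a-3p 21 (4.67 RPM). Of 26 entries from miR-290 to miR-295, miR-302 and miR-367, which mark embryonic stem cells and early placenta, 2 were listed in JB6 exosomes with 46 reads in all and 2 in B16 cells with 48, namely miR-292a-5p and miR-293-5p, and none in B16 exosomes. The defining miRNAs miR-294-3p, miR-295-3p and miR-302a-3p were at 0 in all 3 libraries. Whether material from other cell types was present in the JB6 exosome library, or gave any of its miR-669c-5p reads, was not tested.

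The Dlk1-Dio3 cluster, the other large imprinted miRNA array of the mouse, was the nearest like group. Of its 94 entries on a list fixed by name, 25 were listed in JB6 exosomes, 12 in B16 cells and 2 in B16 exosomes, and of the 25, 16 were at 0 in B16 cells. Over all entries the shares listed were 20.3%, 29.2% and 7.78% in the same order of libraries. The summed level of the cluster in JB6 exosomes was 5725 RPM, against 50.1 RPM in B16 cells and 1007 RPM in B16 exosomes. The B16 exosome value rests on 46 reads, 32 of miR-127-3p and 14 of miR-379-5p. In JB6 exosomes the reads of the cluster were spread over several entries, with 29.0% in miR-409-3p (exact 95% interval 28.4 to 29.5), 27.2% in miR-543-3p and 22.1% in miR-127-3p. In the Sfmbt2 families miR-669c-5p alone held 97.4% of the reads. With 1 library this is a description of that library.

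Some other miRNAs with a UGUGUG or CACACA stretch were listed in the B16 libraries. Of 30 such miRNAs outside these families 10 were listed in B16 cells, 9 in JB6 exosomes and 2 in B16 exosomes. Over all entries the shares listed were 29.2%, 20.3% and 7.78% in the same order. The 2 listed in B16 exosomes were let-7b-5p with 476 reads there and miR-342-3p with 45. miR-574-5p, shown with its seed in capitals because its repeat is of the same U and G form, had 17 reads in B16 cells, a listed 0 in B16 exosomes and 39 reads in JB6 exosomes.
miR-574-5p: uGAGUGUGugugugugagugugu
miR-32-3p, with a shorter stretch, had 341 reads in B16 cells and a listed 0 in both exosome libraries.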

How the data were processed

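Small RNA was sequenced on an Illumina HiSeq instrument, per the labels. Tools named in the submitters' processing notes are bcl2fastq and BWA, with the build mm10. The sources used here give no versions, annotation release or treatment of reads matching several entries. The deposited files give a count of reads per mature miRNA, not normalized, with values below 10 listed as 0. They also give an RPM value that the authors computed from a larger total, which the values put at 8721363 for B16 cells, 5626936 for JB6 exosomes and 847694 for B16 exosomes. Its meaning is not stated.

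Shares of total miRNA reads and their ratios were computed with exact (Clopper-Pearson, conditional binomial) 95% intervals in Python 3.11.15 with SciPy 1.17.1. A listed 0 was set at 9 reads. A miRNA was called with 30 or more reads over the pair, a 2-fold ratio and an interval that excludes 1. Code was tested on simulated data. Reads are not independent molecules, so intervals cover counting error only, and with 1 library per group no test across libraries was possible. Alternatives used edgeR 4.0.16 (TMM), DESeq2 1.42.0 size factors, other totals and other minimums. Hairpins were matched by name to GENCODE M21, whose build GRCm38 is mm10.

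The members, lists, motif and tests were chosen with earlier results of these data known. The naming rule took the 12 most abundant members of each library, which covered all 11 listed, and both arms where listed. Non-members beside them were chosen after their values were seen.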

Additional observations from a re-analysis of the deposited data

How the results depend on the processing

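The 5 higher and 0 lower members in JB6 exosomes against B16 cells were counted the same under the 4 other scalings, with a 2-fold limit on the interval itself and with a listed 0 taken as 0. A minimum of 10 reads or none gave 6 higher, a minimum of 100 reads gave 2, and equal-count entries taken as 1 gave 4. Every log2 ratio of that comparison moved by 2.58 under DESeq2 size factors, 1.35 under TMM, 0.62 when the 10 top miRNAs of each library were left out of the totals and -0.19 under the authors' totals. The bound of miR-669c-5p ran from 3100-fold to 21070-fold over these scalings, and 5 of the 11 listed members, those with 10 to 12 reads, met the fold and interval parts of the rule under the first 3 of these. The summed bound ran from 39.8-fold to 270-fold, and fell to 1.20-fold without miR-669c-5p. In B16 exosomes against JB6 exosomes the authors' totals made 2 members lower in place of 1, adding miR-669n at 2.80-fold or more. The summed share in JB6 exosomes was 0.0108% without miR-669c-5p, 0.407% over members with all hairpins in Sfmbt2 and 0.329% of the authors' total. With equal-count entries taken as 1, miR-669c-5p held 97.9% of member reads, 5p arms 98.2% and 3p arms 0.658%. Without miR-669c-5p the most abundant entry held 34.4%, 5p arms 11.3%, 3p arms 44.9% and names without an arm 43.8%. These shifts follow from the entries left out or the totals used. Joining entries of equal mature sequence was not run, as the sequences of those entries were not used here. Leaving out a replicate does not apply, and no paired analysis was possible because each group held 1 library. Depth limits the B16 exosome library, where a listed 0 can hide 197 RPM.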
